A study of Mus musculus with 6 samples.

Results

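The transcripts described here are those of the extracellular matrix and its main receptors in NSC-34 cells: 43 collagen chains, 11 laminin chains, 6 other matrix glycoproteins and 20 integrin chains. They were chosen by symbol alone, as every gene of the table named like a numbered collagen, laminin or integrin chain, together with Fn1, Sparc, Tnc, Nid1, Nid2 and Hspg2. This gave 80 of the 23038 genes listed. Integrin chains with a letter in place of a number, such as Itgav, are not matched, nor is Col26a1, which the table lists under its older symbol Emid2. NSC-34 is a mouse motor neuron (MN)-like hybrid line, derived from a fusion of neuroblastoma and embryonic spinal cord cells, so all 6 libraries share the genome of 1 immortal line. Cultures in serum-containing medium received either a control siRNA (siNC) or an siRNA directed at Qk (siQk), the gene of the Quaking RNA-binding proteins, with 3 libraries in each group. The cultures were independent, and several different siRNAs to Qk were used, without a statement of which library received which. The question of the comparison is whether transcript levels depend on Quaking. The paper reports few changes of transcript level but many changes of splicing in these cells, and exon use was not examined here.

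Collagens are built from 3 chains wound into a triple helix, and laminins from an alpha, a beta and a gamma chain that join in the endoplasmic reticulum. Laminins and type IV collagen form the sheets of the basement membrane, which nidogens and perlecan (Hspg2) tie together. Integrins are pairs of an alpha and a beta chain in the plasma membrane that bind these proteins outside the cell and the actin cytoskeleton inside it. Neurons are known to use integrins and laminins for neurite growth, whereas fibrillar collagens are typical of fibroblasts and other connective tissue cells.

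Library totals were 43000503 to 53565950 counts. Qk itself averaged 10.9 ± 3.54 RPKM after siNC and 1.40 ± 0.304 RPKM after siQk (SD, n = 3), where RPKM is the count per kilobase of exon, scaled to the library's total count. Its log2 fold change was -2.997 (SE 0.34, adjusted p = 0.0149, edgeR quasi-likelihood test), and the groups did not overlap. This call was lost when siNC replicate 1 was left out (log2 fold change -3.09, adjusted p = 0.125, edgeR quasi-likelihood test). Of the neuronal markers, Tubb3 (277 RPKM) and Gap43 (123 RPKM) were abundant, whereas Dcx had 0 counts in every library and Stmn2 was near 0 (0.0013 RPKM). Of the MN markers, Prph was at 629 RPKM and Isl1 at 4.79 RPKM in siNC and 8.59 RPKM in siQk, without overlap (unadjusted p = 0.00101, adjusted p = 0.9996, edgeR quasi-likelihood test), whereas Chat (0.0883 RPKM), Mnx1 and Slc5a7 were near 0. Isl2 had 3.73 RPKM, Slc18a3 1.97 RPKM and Lhx3 0.306 RPKM. Of 9 fibroblast markers, Lum, Twist2 and Tcf21 had 0 counts in every library, whereas Thy1 had 7.11 RPKM, Pdgfra 4.79 RPKM and Pdgfrb 3.03 RPKM. The level of Pdgfrb was lower in siQk (2.04 RPKM) than in siNC (4.01 RPKM), without overlap of the groups (log2 fold change -1.01, unadjusted p = 0.0356, adjusted p = 0.9996, edgeR quasi-likelihood test). The fold change was -0.64 without siQk replicate 2, which was the lowest library, and -0.35 without siNC replicate 3 as well. It was -1.315 without siQk replicate 1. That of Pdgfra was 0.09. The summed level of these markers was 12.8 to 20.5 RPKM in siNC and 7.69 to 16.9 RPKM in siQk. Schwann cell and oligodendrocyte, endothelial, and macrophage markers summed to 42.7 to 84.3, 8.98 to 17.6 and 0.595 to 2.34 RPKM per library. Pmp22 gave most of the first of these sums, with a mean of 65.1 RPKM, and Sox10 was near 0. siNC replicate 3 and siQk replicate 2 stood apart from the other libraries: the first was the lowest of the 6 for 30.9% of all genes tested, and the second was the highest for 28.8%. The counts of called genes and of directions are given with and without them. In RNA from whole cultures, fewer cells of a type and less RNA per cell cannot be told apart.

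The matrix of these cells was uneven in its make-up. A total of 33 of the 80 genes had a mean of at least 1 RPKM over the 6 libraries, and 8 genes (10.0%) had at least 10 RPKM, against 28.4% of all genes listed. A further 25 genes (31.2%) had 1 to 10 RPKM, against 22.8% of all genes. Of the rest, 16 genes lay between 0.1 and 1 RPKM, 23 genes were detected below 0.1 RPKM, and 8 genes (10.0%) had 0 counts in all libraries, against 21.9% of all genes. Those 8 were Col6a3, Col9a1, Col11a1, Col13a1, Col25a1, Lama1, Tnc and Itgb8. At these depths 3 counts correspond to 0.00653 to 0.0191 RPKM for these genes, the level that a count of 0 still allows, and such limits cover counting error only.

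**Figure D1:**
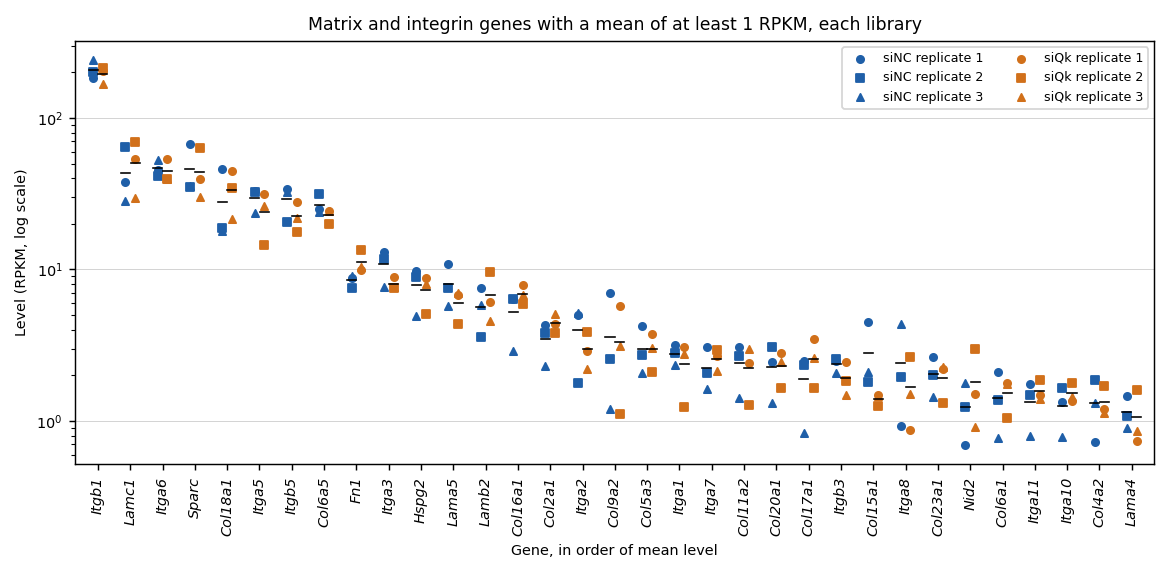
Level of the 33 collagen, laminin, integrin and matrix glycoprotein genes with a mean of at least 1 RPKM (log axis), 1 point per library, blue for siNC and orange for siQk, with the replicate number as the symbol and black dashes at group means. Itgb1 lies above every other gene in all 6 libraries, 7 further genes have means above 10 RPKM, and siNC and siQk overlap for all genes shown but Fn1 and Col15a1.

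Integrin beta chains were dominated by Itgb1, the common partner of most alpha chains. Itgb1 had 183, 201 and 242 RPKM in the siNC libraries and 204, 215 and 167 RPKM in the siQk libraries. It was the highest of all 80 genes in every library, and took 87.3% of the summed beta chain level and 37.2% of the summed level of all 80 genes. Itgb5, which pairs with Itgav in a vitronectin receptor, followed at 34.1, 20.5 and 32.5 RPKM in siNC and 27.9, 17.7 and 21.9 RPKM in siQk. Itgb3, the other well-known partner of Itgav, had a mean of only 2.15 RPKM. Itgb2, a leukocyte chain, had 0.737 RPKM and Itgb4, the chain of epithelial hemidesmosomes, had 0.403 RPKM.

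Among alpha chains, Itga6, part of laminin receptors, was the most abundant and took 47.5% of the summed alpha chain level. Its level was 45.2, 41.6 and 53.2 RPKM in siNC and 53.6, 39.8 and 39.6 RPKM in siQk, the narrowest range of the 45 tested genes (1.36-fold between the highest and the lowest library). Itga5, the alpha chain of the classical fibronectin receptor, had 33.2, 32.6 and 23.5 RPKM in siNC and 31.3, 14.5 and 26.2 RPKM in siQk, with siQk replicate 2 well below the rest. Itga3, another laminin-binding chain, had 13.1, 11.7 and 7.61 RPKM in siNC and 8.94, 7.49 and 7.72 RPKM in siQk, so that its groups overlapped through siNC replicate 3. The collagen-binding chains were lower: Itga2 had a mean of 3.48 RPKM, Itga1 had 2.58 RPKM, Itga11 had 1.47 RPKM and Itga10 had 1.39 RPKM. For Itga10, 33.5% of the annotated exon bases also belong to another gene on the same strand, Gm42957, so its level is uncertain. Itga4 (0.242 RPKM) and Itga9 (0.00292 RPKM), whose products are closely related, were the least abundant with Itga2b (0.358 RPKM).

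Since an integrin is exported as a pair, the levels of partner chains were set against each other. The Itgb1 level was 1.71 to 2.82 times the summed level of Itga1 to Itga11 in the 6 libraries, with means of 202 and 95.5 RPKM. The ratio of Itga6 to Itgb1 was 0.247, 0.207 and 0.220 in siNC and 0.264, 0.185 and 0.237 in siQk. That of Itga5 to Itgb1 was 0.181, 0.163 and 0.0971 in siNC and 0.154, 0.0676 and 0.157 in siQk. Neither ratio separated the groups. Itgav, at 10.5 RPKM, stood at 0.266 to 0.628 of the Itgb5 level.

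Laminin chains were led by the gamma chain Lamc1, which is part of most laminins. Lamc1 had 38.0, 64.3 and 28.2 RPKM in siNC and 53.4, 68.9 and 29.6 RPKM in siQk, so replicate 2 was the highest and replicate 3 the lowest of each group. It took 75.01% of the summed laminin level. Of the alpha chains, Lama5 had 7.06 RPKM and Lama4 had 1.11 RPKM, whereas Lama1 had 0 counts, Lama2 had counts in 1 library alone and Lama3 had at most 7 counts in a library. The gamma chains together reached 48.0 RPKM, the alpha chains 8.17 RPKM and the beta chains 6.62 RPKM. The ratio of gamma to alpha chains was 3.13 to 11.8, and that of gamma to beta chains 4.50 to 16.2, above 1 in every library.

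Of the beta chains, Lamb1, a part of the laminin most typical of embryonic basement membranes, had 0.0390, 0.0198 and 0.0243 RPKM in siNC and 0.0298, 0.0175 and 0.0226 RPKM in siQk, or 9 to 19 counts per library. Lamb2, the beta chain enriched at the neuromuscular synapse, had 7.52, 3.56 and 5.85 RPKM in siNC and 6.06, 9.63 and 4.56 RPKM in siQk. Lamb2 thus stood at 179 to 549 times Lamb1, in every library. To show the sequence before these unequally used genes, the promoter windows of both are printed 5′ to 3′ from 250 bases before to 50 bases after the RefSeq start (GRCm38.p6, both on the plus strand). Capitals mark matches on either strand to the TATA box motif TATAAA, the GC box motif GGGCGG and the CCAAT box motif of these letters. The Lamb1 window, chr12:31265043-31265342, held 18 CpG dinucleotides, 2 GGGCGG matches and 1 CCAAT match. The Lamb2 window, chr9:108479612-108479911, held 4 CpG dinucleotides and no match to the 3 motifs.
Lamb1: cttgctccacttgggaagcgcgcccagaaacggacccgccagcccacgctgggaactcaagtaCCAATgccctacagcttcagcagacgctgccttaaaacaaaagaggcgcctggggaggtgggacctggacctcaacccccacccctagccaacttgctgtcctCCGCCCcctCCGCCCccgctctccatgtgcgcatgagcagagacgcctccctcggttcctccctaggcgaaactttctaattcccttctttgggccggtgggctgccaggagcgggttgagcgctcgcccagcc
Lamb2: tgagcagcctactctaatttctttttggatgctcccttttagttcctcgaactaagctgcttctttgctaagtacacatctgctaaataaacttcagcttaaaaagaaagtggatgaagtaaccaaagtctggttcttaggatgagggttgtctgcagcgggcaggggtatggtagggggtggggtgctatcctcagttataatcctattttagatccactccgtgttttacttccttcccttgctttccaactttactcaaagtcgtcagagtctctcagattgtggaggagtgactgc

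The other matrix glycoproteins were Sparc, Fn1, Hspg2 and Nid2, in this order, with Nid1 near 0 and Tnc at 0 counts. Sparc, a secreted collagen-binding protein, had 67.7, 35.3 and 35.7 RPKM in siNC and 39.7, 63.1 and 30.0 RPKM in siQk. It was high in 1 library of each group, siNC replicate 1 and siQk replicate 2. Fn1, which encodes fibronectin, the ligand of the Itga5 and Itgb1 pair, had 8.75, 7.50 and 9.12 RPKM in siNC and 9.91, 13.5 and 10.4 RPKM in siQk. Hspg2 had a mean of 7.58 RPKM. Of the nidogens, which bind the laminin gamma chain, Nid2 had 1.52 RPKM and Nid1 0.0232 RPKM, the latter from 1 to 14 counts per library. In the Nid2 gene, 8.45% of the exon bases overlap Rtraf on the opposite strand, which libraries without strand information cannot resolve.

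Collagens summed to 115, 85.1 and 62.5 RPKM in siNC and 110, 81.6 and 81.2 RPKM in siQk. The basement membrane collagen Col18a1, the source of endostatin, had the highest mean of them, at 46.3, 18.8 and 17.9 RPKM in siNC and 44.8, 34.6 and 21.6 RPKM in siQk. Col6a5 lay above it in siNC replicates 2 and 3 and siQk replicate 3. Col18a1 took 34.3% of the summed collagen level and 86.7% of that of the network and basement membrane class. Col15a1, its closest relative, had a mean of 2.11 RPKM. Type IV collagen, the backbone of basement membranes, was scarce by comparison, with Col4a2 at 1.32 RPKM, Col4a1 at 0.266 RPKM and Col4a3 to Col4a6 at or below 0.0238 RPKM.

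The fibrillar collagens of connective tissue were nearly absent, with Col1a1 at 0.0626 RPKM, Col1a2 at 0.00235 RPKM, Col3a1 at 0.000390 RPKM and Col5a1 at 0.000422 RPKM. Of the 4 fibrillar chains with enough counts to test, Col2a1 (3.94 RPKM) and Col11a2 (2.31 RPKM) are best known from cartilage, and the others were Col5a3 (2.98 RPKM) and Col24a1 (0.982 RPKM). Col9a2, whose product decorates type II collagen fibrils, had 3.44 RPKM, and Col9a3 had 0.818 RPKM, whereas Col9a1 and Col11a1 had 0 counts. Col9a2 also had the widest range of the tested genes, with 6.95, 2.55 and 1.20 RPKM in siNC and 5.73, 1.10 and 3.12 RPKM in siQk. Col16a1, at 6.05 RPKM, was the second of the fibril-associated class. Of the 4 transmembrane collagens, Col17a1 (2.24 RPKM) and Col23a1 (1.98 RPKM) were present and Col13a1 and Col25a1 had 0 counts.

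Col6a5, a chain of the beaded-filament type VI collagen, was the first of its class with 24.9, 31.4 and 24.1 RPKM in siNC and 24.4, 19.98 and 24.2 RPKM in siQk. It lies on the minus strand of chromosome 9 (GRCm38, 105856078 to 105960643) between Col6a6 and Col6a4, with gaps of 27917 and 28810 bases. These neighbours were far lower, as Col6a6 had 0.169 RPKM and Col6a4 had 0.0729 RPKM. The chains of the widespread form of type VI collagen were also low, with Col6a1 at 1.47 RPKM, Col6a2 at 0.198 RPKM and Col6a3 at 0 counts. The ratio of Col6a1 to Col6a2 was 5.54 to 11.2.

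Col4a1 and Col4a2, whose products form the usual triple helix of type IV collagen, lie head to head on chromosome 8 and their annotated genes overlap by 22 bases. Col4a1 had 0.211, 0.259 and 0.246 RPKM in siNC and 0.269, 0.423 and 0.187 RPKM in siQk. Col4a2 had 0.730, 1.87 and 1.32 RPKM in siNC and 1.20, 1.70 and 1.12 RPKM in siQk. Their ratio was 0.289, 0.138 and 0.187 in siNC and 0.225, 0.249 and 0.166 in siQk, so Col4a2 was the higher in every library. The other type IV genes are arranged the same way, Col4a4 and Col4a3 with 71 bases and Col4a6 and Col4a5 with 1308 bases between them, and were near 0. The 2 windows of the first pair are printed below in the same way, since they share 78 bases and precede transcripts of different level. The Col4a1 window, chr8:11312777-11313076 on the minus strand, held 37 CpG dinucleotides, 1 GGGCGG match and 1 CCAAT match. The Col4a2 window, chr8:11312555-11312854 on the plus strand, held 33 CpG dinucleotides, 3 GGGCGG matches and 1 CCAAT match.
Col4a1: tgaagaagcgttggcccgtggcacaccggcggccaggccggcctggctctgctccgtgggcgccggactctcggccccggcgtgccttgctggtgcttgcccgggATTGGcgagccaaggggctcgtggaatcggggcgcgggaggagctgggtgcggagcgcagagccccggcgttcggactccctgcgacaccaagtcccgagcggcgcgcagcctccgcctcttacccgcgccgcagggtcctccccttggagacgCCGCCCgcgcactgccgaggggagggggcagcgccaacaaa
Col4a2: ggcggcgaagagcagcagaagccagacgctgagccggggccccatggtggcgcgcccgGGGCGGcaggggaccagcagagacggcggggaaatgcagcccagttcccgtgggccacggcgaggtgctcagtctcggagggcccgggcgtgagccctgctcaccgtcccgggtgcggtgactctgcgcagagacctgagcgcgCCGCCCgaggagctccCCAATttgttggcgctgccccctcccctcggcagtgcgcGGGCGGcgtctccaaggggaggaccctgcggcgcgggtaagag

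**Figure D2:**
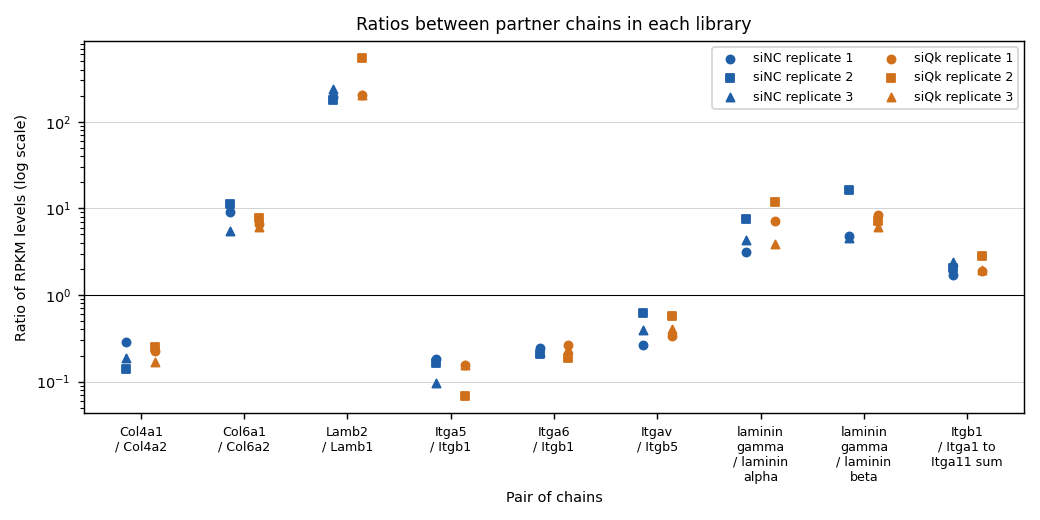
Ratio of the RPKM levels of partner chains in each library (log axis), blue for siNC and orange for siQk, with a line at equal levels. Lamb2 exceeds Lamb1 by 179 to 549 times, Col4a1 stays below Col4a2, and the laminin gamma chains exceed the alpha and the beta chains in all 6 libraries.

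Summed by role, beta integrins reached 241 ± 31.0 RPKM in siNC and 221 ± 25.3 RPKM in siQk, and alpha integrins 102 ± 4.72 and 89.7 ± 15.5 RPKM (SD, n = 3). Laminins summed to 59.8 ± 18.0 and 65.7 ± 21.4 RPKM, and the other glycoproteins to 63.8 ± 20.1 and 64.6 ± 18.1 RPKM. For each of these sums the difference between the group means was smaller than the larger SD. In the order of mean levels, 2 steps among the first 16 genes separated neighbours without overlap of the libraries' ranges, from Itgb1 to Lamc1 and from Col6a5 to Fn1. From Lamc1 through Itga6, Sparc, Col18a1, Itga5 and Itgb5 down to Col6a5, every pair of neighbours overlapped. Ranks farther apart could be separate, as Itga6 lay above Itga5, Itgb5 and Col6a5 in all 6 libraries. The same 10 genes were the 10 highest in siNC alone, in siQk alone and with TMM-scaled counts per kilobase.

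**Figure D3:**
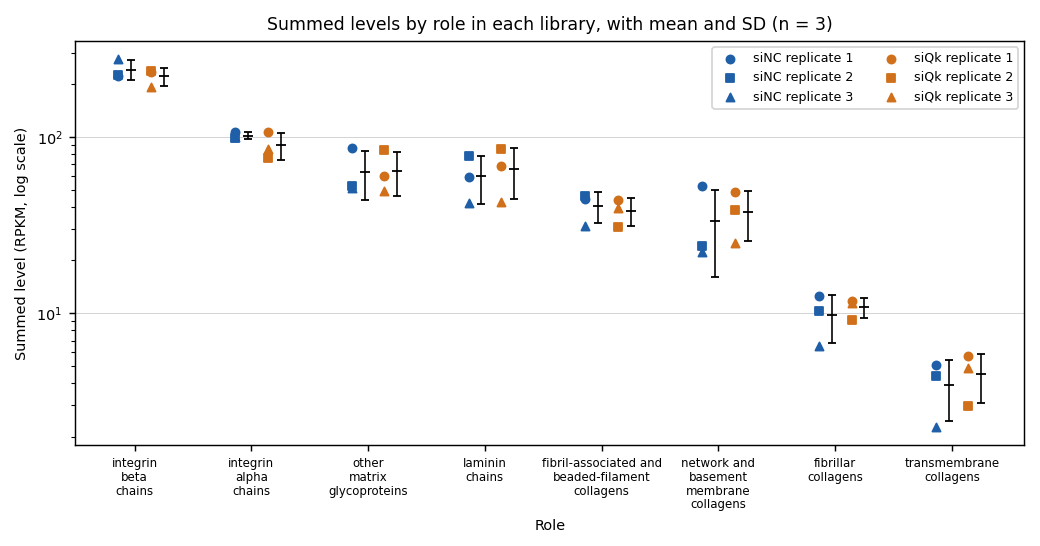
Summed RPKM of the 80 genes by role in each library (log axis), blue for siNC and orange for siQk, with black bars for the group mean and SD (n = 3). Integrin beta chains form the largest sum and transmembrane collagens the smallest, and in each role the libraries of siNC and siQk overlap.

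For the effect of Qk knockdown, 45 of the 80 genes had enough counts to be tested (mean log2 CPM above 0), which are 19 collagens, 6 laminins, 4 other glycoproteins and 16 integrins. The 35 untested genes had means of at most 0.189 RPKM. None of the 45 was called changed (a p under 0.01 with an adjusted p under 0.1 in edgeR's quasi-likelihood test), where 0.0079% of all 12665 tested genes were called, namely Qk alone. At an unadjusted p under 0.05 there was 1 gene, Col15a1, against 2.89% of all genes. Under the edgeR exact test and DESeq2 there were 1 and 2 such genes, among 418 and 460 of all genes. The smallest adjusted p of a member was 0.9996. The groups did not overlap for 3 of the 45 genes (6.67%), against 8.84% of all genes tested. Of these, 2 were lower in siQk, where the share over all genes was 3.49%, and 1 was higher, where it was 5.35%.

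Col15a1, a basement membrane collagen, had 4.53, 1.82 and 2.10 RPKM in siNC and 1.49, 1.26 and 1.46 RPKM in siQk. The siQk libraries lay close together below all siNC libraries, and siNC replicate 1 stood far above the rest. The log2 fold change was -1.03 (SE 0.42, unadjusted p = 0.0129, adjusted p = 0.9996, edgeR quasi-likelihood test). Without siNC replicate 1 it was -0.52, and its unadjusted p was then 0.0673 (edgeR quasi-likelihood test), the highest of its fits. Without siNC replicate 2 the fold change was -1.28. The two-sided exact permutation p was 0.1, the smallest that 3 libraries against 3 allow.

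Lamb3, a beta chain of epithelial laminin, had 0.497, 0.456 and 0.574 RPKM in siNC and 0.397, 0.119 and 0.352 RPKM in siQk. Its groups did not overlap, and siQk replicate 2 was far below the others. The log2 fold change was -0.84 (SE 0.55, unadjusted p = 0.0838, edgeR quasi-likelihood test), and -0.47 without siQk replicate 2. With siNC replicate 3 also left out it was -0.34, whereas without siQk replicate 1 alone it was -1.14. Fn1 was the gene with the reverse order, and its 3 siQk libraries lay above its 3 siNC libraries, at means of 11.3 ± 1.95 and 8.46 ± 0.853 RPKM (SD, n = 3). The log2 fold change was 0.39 (SE 0.17, unadjusted p = 0.0581, edgeR quasi-likelihood test), 0.24 without siQk replicate 2 and 0.47 without siNC replicate 3. Among untested genes Col4a3 also did not overlap, but on 0, 1 and 0 counts in siNC and 3, 5 and 7 counts in siQk.

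For every other tested gene the groups overlapped. After Lamb3 and Col15a1, the most negative fold change was that of Itgb4 (-0.64, SE 0.62). It was -0.05 without siNC replicate 1 and -1.145 without siQk replicate 1. The most positive were those of Nid2 (0.51, SE 0.63), Col6a2 (0.48, SE 0.43) and Col17a1 (0.43, SE 0.58). Without siQk replicate 2 that of Nid2 was -0.07, and without siNC replicate 3 that of Col17a1 was 0.09. That of Nid2 was 0.89 without siNC replicate 3, and that of Col17a1 was 0.68 without siNC replicate 1. Leaving out siQk replicate 3 put Col6a2 at 0.28, and leaving out siNC replicate 1 put it at 0.79. Of the abundant genes, Itgb1 was at -0.12 (SE 0.18), Itga6 at -0.10, Lamc1 at 0.20, Sparc at -0.09, Col18a1 at 0.26, Itga5 at -0.33, Itgb5 at -0.40 and Col6a5 at -0.25. The signs of Itgb1, Itga6, Lamc1, Sparc and Col18a1 each turned when 1 library was left out, and Sparc ran from -0.43 to 0.28. Itga5 was at -0.07 without siQk replicate 2, Itgb5 at -0.25 without siQk replicate 2 and -0.615 without siNC replicate 2, and Col6a5 at -0.15 without siNC replicate 2. Itga5 was at -0.56 without siQk replicate 1, and Col6a5 at -0.31 without siNC replicate 1. Without both libraries that stood apart, Itgb5 was at -0.13 and Itga5 at -0.19. The best determined of the 45 was Col6a5, with an SE of 0.14. Itga3 had -0.44 (SE 0.23, unadjusted p = 0.0606, edgeR quasi-likelihood test).

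**Figure D4:**
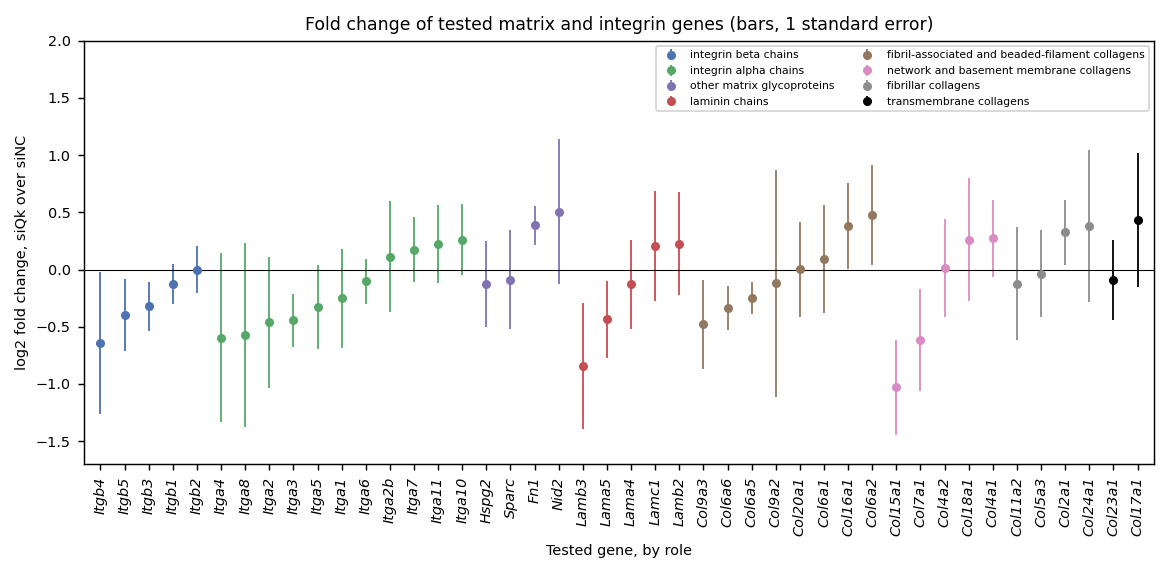
Fitted log2 fold change of siQk over siNC for 44 of the 45 tested genes, grouped and coloured by role, with bars of 1 standard error from the spread between libraries. No gene was called changed, and the values run from -1.03 for Col15a1 to 0.51 for Nid2.

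The fitted fold change was negative for 27 of the 45 genes (60.0%) and positive for 18, with a median of -0.10, against 49.2% negative and a median of 0.0034 over all genes tested. This sign turned with 1 library, since without siNC replicate 1 only 20 genes were negative and the median was 0.08. Without siNC replicate 3 and siQk replicate 2, a choice made after the data were seen, 35 genes were negative and the median was -0.12. Integrins held 12 of the negative values and 4 of the positive ones, with a median of -0.29. This median was -0.135 without siQk replicate 2 and -0.142 without siNC replicate 3 as well. All 5 tested beta chains, Itgb1, Itgb2, Itgb3, Itgb4 and Itgb5, had negative values, but 4 of the 5 did with total counts, with upper quartile scaling, with the replicate block, and without siNC replicate 1, siNC replicate 3 or siQk replicate 2. Itgb2 was at 0.00 in the reported fit. Of 11 alpha chains 7 were negative, and 9 without both libraries. Collagens were even, with 9 negative, 10 positive and a median of 0.0035, and of the 6 laminins 4 were negative, with a median of -0.20. All 6 were negative without siQk replicate 2 (median -0.36) and without both libraries (median -0.38), and 3 were without siNC replicate 1 or siQk replicate 1. Across the fits that left out 1 library or these 2, negative integrins numbered 10 to 14 and negative collagens 6 to 13.

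The libraries within a group differed more for these genes than for most. The SD of log2 CPM within groups had a median of 0.476 over the 45 genes and 0.263 over all genes tested, and 38 of the 45 genes lay above the latter. The standard errors of the fold changes had a median of 0.39, against 0.21 over all genes. A total of 7 of the 45 genes (15.6%) had a fold change beyond 0.5 in either direction, against 6.48% of all genes. None of these comparisons was matched for level, and the part of level in them was not tested. Collagens in particular were lower in the 2 libraries that stood apart. For 11 of 19 collagens (57.9%) siNC replicate 3 and siQk replicate 2 were the 2 lowest libraries, among them Col9a2, Col11a2, Col17a1 and Col16a1, compared with 16.4% of all genes. This count is of RPKM levels and includes near ties in Col6a5 and Col2a1. On the TMM-scaled log2 CPM scale it was 9 of 19 (47.4%), without these 2 genes, against 14.7% of all genes. The median deviation of the 19 collagens from their own means was -0.42 in siNC replicate 3 and -0.37 in siQk replicate 2 on the log2 CPM scale, and 0.07 to 0.29 in the other libraries. Integrins showed less of this, with medians of -0.04 and -0.13 in these libraries, and 5 of 16 genes by RPKM or 4 by log2 CPM. siNC replicate 1 was the highest library for 18 of the 45 genes (40.0%), against 18.8% of all genes. The summed level of the 11 neuronal markers was 388 RPKM in siNC replicate 3 and 555 RPKM in siQk replicate 2, whereas the others had 672 to 757 RPKM. Tubb3 carried most of this, with 142 and 186 RPKM in these libraries and 318 to 349 RPKM in the others. siNC replicate 3 was also the lowest library for Gap43 (95.8 RPKM), Syt1 (33.5 RPKM), Nefl (22.7 RPKM), Elavl3 (7.98 RPKM) and Nefm (4.74 RPKM), but not for Snap25, Elavl4 and Mtap2. In contrast, siQk replicate 2 was the highest library for Snap25 (71.3 RPKM) and Elavl3 (13.8 RPKM). The fibroblast marker sum was 18.7 RPKM in siNC replicate 3 and 7.69 RPKM in siQk replicate 2. The sum of the MN markers was 569 and 436 RPKM in these libraries, and 594 to 961 RPKM in the others. For Schwann cell and oligodendrocyte markers the sum was lowest in siNC replicate 3 (42.7 RPKM) and highest in siQk replicate 2 (84.3 RPKM). The part of these markers in the collagen levels was not tested.

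**Figure D5:**
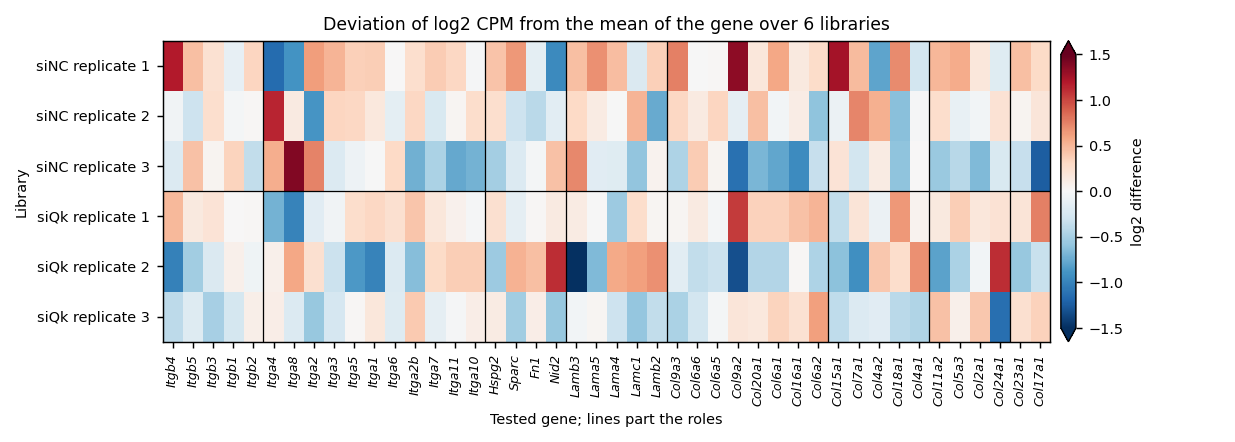
Deviation of TMM-scaled log2 CPM from each gene's mean over 6 libraries, for 44 of the 45 tested genes (columns, parted by role) and the 6 libraries (rows), red above and blue below the mean. siNC replicate 3 and siQk replicate 2 are blue for most collagens, and siNC replicate 1 is red for the genes where it is the highest library.

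The genes that make, bind and cleave the matrix were examined as lists. None of their members was called changed. Of 27 tested genes of collagen folding and crosslinking, 17 had negative and 10 positive fold changes, with a median of -0.07 and 0 genes at an unadjusted p under 0.05. The 3 genes with the smallest p were Loxl2, a lysyl oxidase (-0.86), Leprel2, a prolyl hydroxylase (-0.35), and Crtap, part of a prolyl hydroxylase complex (0.31). Loxl2 and Crtap each rested on 1 library, since Loxl2 was at -0.11 without siNC replicate 2 and Crtap at 0.0084 without siQk replicate 2. Leprel2 was at -0.14 without siNC replicate 1, -0.19 without siQk replicate 2 and -0.53 without siNC replicate 3. The median of the list was -0.145 without siQk replicate 2, -0.018 without siQk replicate 3 and -0.20 without both libraries that stood apart, where 20 of 26 genes were negative. Among 28 genes of the adhesion complex inside the cell, 19 were negative and 2 had an unadjusted p under 0.05, against 2.89% of all genes. Kank1, a scaffold at the rim of adhesions, had 9.59, 7.97 and 8.34 RPKM in siNC and 6.33, 5.26 and 5.66 RPKM in siQk. Its log2 fold change was -0.61 (SE 0.12, unadjusted p = 0.00541, adjusted p = 0.9996, edgeR quasi-likelihood test). Parvb, which ties integrin-linked kinase to actin, had 55.1, 58.1 and 51.5 RPKM in siNC and 46.3, 41.0 and 36.3 RPKM in siQk, with a log2 fold change of -0.44 (SE 0.10, unadjusted p = 0.0156, edgeR quasi-likelihood test). The groups did not overlap for either gene, nor for Tln2, a talin that activates integrins, at -0.42 (SE 0.24). The value for Tln2 was -0.24 without siQk replicate 2 and -0.13 without siNC replicate 3 as well, but -0.53 without siQk replicate 3. In this list 4 of 28 tested genes had all siQk libraries below all siNC libraries, where the share over all genes was 3.49%. The negative genes numbered 14 of 28 without siNC replicate 1 and 20 without both libraries that stood apart.

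Of 17 matrix receptors other than integrins, 10 were negative, and the groups were apart for Cd47, an integrin-associated protein, with means of 91.1 ± 3.59 and 73.1 ± 9.66 RPKM (SD, n = 3). The fitted log2 value for Cd47 was -0.34. Of 17 other matrix proteins 12 were negative, and 0 had an unadjusted p under 0.05. Without both libraries that stood apart, 7 of these receptors and 14 of these proteins were negative, and without siNC replicate 2 there were 8 and 8. Of 25 matrix proteases and inhibitors 11 were negative and 14 positive, with 2 genes at an unadjusted p under 0.05, against the same 2.89%. Without both libraries 13 of 24 were negative. The 2 genes at this p were Adam12 (-1.36) and Adamts1 (1.04, at a mean of 0.903 RPKM). For Adam12 siNC replicate 2 alone was high, and the value was -0.26 without it but -1.76 without siNC replicate 1. For Adamts1 siQk replicate 2 was high, and the value was 0.39 without it but 1.30 without siQk replicate 1.

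Promoter windows were at hand for 59 of the 80 genes, in 66 windows. They held a median of 12 CpG dinucleotides, against 7 in all 32851 windows of the table. GGGCGG was present in 56.1% of them and in 35.7% of all windows, CCAAT in 25.8% and 37.4%, and TATAAA in 10.6% and 13.6%. Itgb1 had a window with 27 CpG dinucleotides and GGGCGG, and Col6a5 had 10 CpG dinucleotides and GGGCGG. The Quaking proteins are known to bind RNA around the letters ACUAAC and the variant of it that ends in U, ACUAAU. In the longest annotated coding transcript, 18 of the 45 tested genes (40.0%) held either word, against 45.1% of 11936 matched genes, although the transcripts of the 45 were longer, with a median of 5588 bases against 3175. Fn1, Itga1 and Col4a1 each held 2 ACUAAC words, and Col15a1, Lamb3 and Itgb1 held neither word. A match is only a description of these letters and not a binding site.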

How the data were processed

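The authors selected poly-A RNA from 3 cultures per group, made libraries with a TruSeq version 2 kit, aligned paired reads with OLego (mm10 per the labels) and counted them per gene with Quantas. The deposited files give an expected count, an exon length and an RPKM value per gene, and between 21.9% and 22.9% of the counts per library were not whole numbers, with no tolerance allowed. The authors' RPKM values were rebuilt from count, exon length and library total. Expected counts were rounded, scaled by TMM (0.956 to 1.02) and tested with the quasi-likelihood test of edgeR 4.0.16 in R 4.3.3 for the 12665 genes with a mean log2 CPM above 0, siQk against siNC, with Benjamini-Hochberg adjustment over all of them. Fold changes are log2 of siQk over siNC, with SEs from the spread of log2 CPM (prior count 2). Single values were compared by a two-sided exact permutation test. The genes, lists, pairs and rules were chosen with earlier results of these data known. Described in full were Qk, genes with an unadjusted p under 0.05 or groups apart, the highest of each role, the 3 largest and 3 smallest fold changes, the paired chains and up to 3 genes per pathway list. Positions are from GENCODE release M21 (GRCm38), which need not be the models counted, and promoters from RefSeq (GRCm38.p6). Genes were not separated by strand or isoform. Each library rests on at least 43000503 counts, so the spread between 3 libraries sets the precision. The values of 1 tested gene are not reported here by name. The scripts were tested on simulated data. Alternatives were other scalings, filters and tests (edgeR exact and likelihood-ratio tests, DESeq2 1.42.0), a replicate block and leaving out each library.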

Additional observations from a re-analysis of the deposited data

How the results depend on the processing

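No collagen, laminin, integrin or matrix glycoprotein gene was called under any of the 15 alternatives, nor when siNC replicate 3 and siQk replicate 2 were both left out, which was chosen after seeing the data. Over all genes, 5 were called under the edgeR exact test, 5 under the likelihood-ratio test and 19 under DESeq2, against 1. Leaving out 1 library gave 0 to 1, with 0 without siNC replicate 1, where the adjusted p of Qk rose to 0.125 at a log2 fold change of -3.09. Over the 6 libraries left out that fold change ran from -3.19 to -2.67. The members at an unadjusted p under 0.05 numbered 1 in the reported fit, 2 with total counts, with filterByExpr and with DESeq2, 4 of 72 with no filter, 1 to 6 leaving out 1 library (6 without siNC replicate 3) and 5 without both libraries that stood apart. With a replicate block there were 2, Col15a1 and Lamb3. Of the 4 with no filter, Col4a3 and Col22a1 had too few counts to be tested in the reported fit. The share over all genes was taken only for the reported fit, the exact test and DESeq2, so the other counts have no background. Deviations of libraries of equal number correlated at 0.213, 0.018 and -0.170. Libraries of unequal number were not compared, so these values cannot decide whether the numbers pair the libraries. The median over the 45 genes ran from -0.23 to 0.08 leaving out 1 library. Of 21 named genes refitted, the sign turned for Col18a1 (range -0.0034 to 0.84), Itga6 (-0.26 to 0.03, and 0.11 without both), Itgb1 (-0.22 to 0.025), Lamc1 (-0.08 to 0.57, and -0.29 without both), Nid2 (-0.069 to 0.89) and Sparc (-0.43 to 0.28, and -0.56 without both). The cause was not tested. The members not tested rest on few counts, and depth limits what can be said of them.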
